A study of Rattus norvegicus with 62 samples.

Results

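The comparison described here is the change in the response of the male rat dorsal root ganglion to nerve injury between 24 h and 1 week. It rests on the 26 male libraries of 62 that carry these 2 times in their labels. They fall into 4 groups, with 6 libraries of the contralateral and 6 of the ipsilateral ganglion at 24 h, and 7 and 7 at 1 week. The animals were Rattus norvegicus with a chronic constriction injury, which commonly means loose ties around the sciatic nerve, and the tissue was the frozen L4 ganglion, which holds cell bodies of neurons that send axons into that nerve. Both sides came from injured animals, and no library of an animal without injury enters the comparison. Strain, age, ligature and anaesthesia are not given in the sources used here. All libraries were poly-A selected RNA of whole ganglia.

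The ganglia of 24 h and 1 week were counted in separate tables, so time and table cannot be told apart in a level. Only side differences, each formed within 1 table, were therefore compared. A side difference is the log2 ratio of the injured (ipsilateral) to the uninjured (contralateral) side. The shift is the side difference at 1 week minus that at 24 h, so that a positive shift means a larger ratio of injured to uninjured side at 1 week. Levels are counts per M (CPM; M, 1e6) on TMM-scaled library sizes. Errors are standard errors (SE), p-values are from the quasi-likelihood test of edgeR, adjusted by Benjamini-Hochberg over all genes tested, and a gene was called at an adjusted p under 0.05.

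As background, sensory neurons whose axons are damaged change their transcription in the ganglion, far from the wound. Transcription factors such as Atf3 and Sox11 are switched on, growth-associated genes and some neuropeptides follow, and genes for channels, receptors and transmitter release are turned down. Macrophages and the glial cells around the neuron bodies respond as well, and chronic constriction injury is widely used as a model of neuropathic pain.

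The 26 libraries held 16.9 to 33.5 M counts, 16.9 to 26.6 M at 24 h and 24.6 to 33.5 M at 1 week. Defining markers of the tissue were present in every library, with Nefh of large neurons at 3785 to 8290 CPM and Calca of peptidergic neurons at 513 to 1114 CPM. Ribosomal RNA took a mean of 0.869% (uninjured) and 0.875% (injured) of counts at 24 h, and 5.10% on both sides at 1 week. Same-numbered libraries of both sides deviated together in all 7 pairs at 1 week, but at 24 h the correlations of pairs 5 and 6 were -0.024 and -0.0199, while the other 4 pairs had 0.201 to 0.405. Injured library 6 correlated at 0.268 with uninjured library 5, and injured library 5 at 0.129 with uninjured library 6, so the labelled numbers of these 2 pairs are in doubt and values per pair at 24 h depend on them. The uninjured library 5 at 24 h stood apart with high blood and cell cycle transcripts, and 1 week pair 3 had the smallest mean side difference of the injury and growth genes. Results that rest on these libraries are given with and without them below. Counts in whole ganglia cannot separate fewer cells of a type from less RNA per cell.

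Of 18804 genes tested, the shift was called for 4198, or 22.3%. It was positive for 1928 genes (10.3%) and negative for 2270 (12.1%), and the median shift over all genes was -0.01. Shifts of more than 2-fold were mostly positive, 702 against 116. The side difference itself was called for 2529 genes at 24 h (13.4%; 8.43% higher and 5.02% lower on the injured side) and for 8458 at 1 week (45.0%; 22.2% higher and 22.8% lower). Without the 24 h pairs 5 and 6 the 24 h count was 1530 and the count of called shifts 3391. The 2 times share no library. The shares of all genes given here are the background for the list counts below.

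Most genes called at 24 h were called in the same direction at 1 week, 1716 of 2529, and 125 were called in the opposite direction. Another 688 were called at 24 h and not at 1 week, of which 274 had a called shift. Conversely, 6617 genes were called at 1 week and not at 24 h, but for 52.4% of them the shift was not called, so that missing the threshold at 24 h does not show a late response. The called shifts split into 1419 genes called as higher only at 1 week, 1733 called as lower only at 1 week, 210 higher at both times and more so at 1 week, 151 lower at both and more so at 1 week, 184 called as higher only at 24 h, 90 called as lower only at 24 h, 36 higher at both and less so at 1 week, 1 (Cdh10) lower at both and less so at 1 week, and 125 opposite. For the remaining 166 with a positive and 83 with a negative shift, neither side difference was called.

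**Figure D1:**
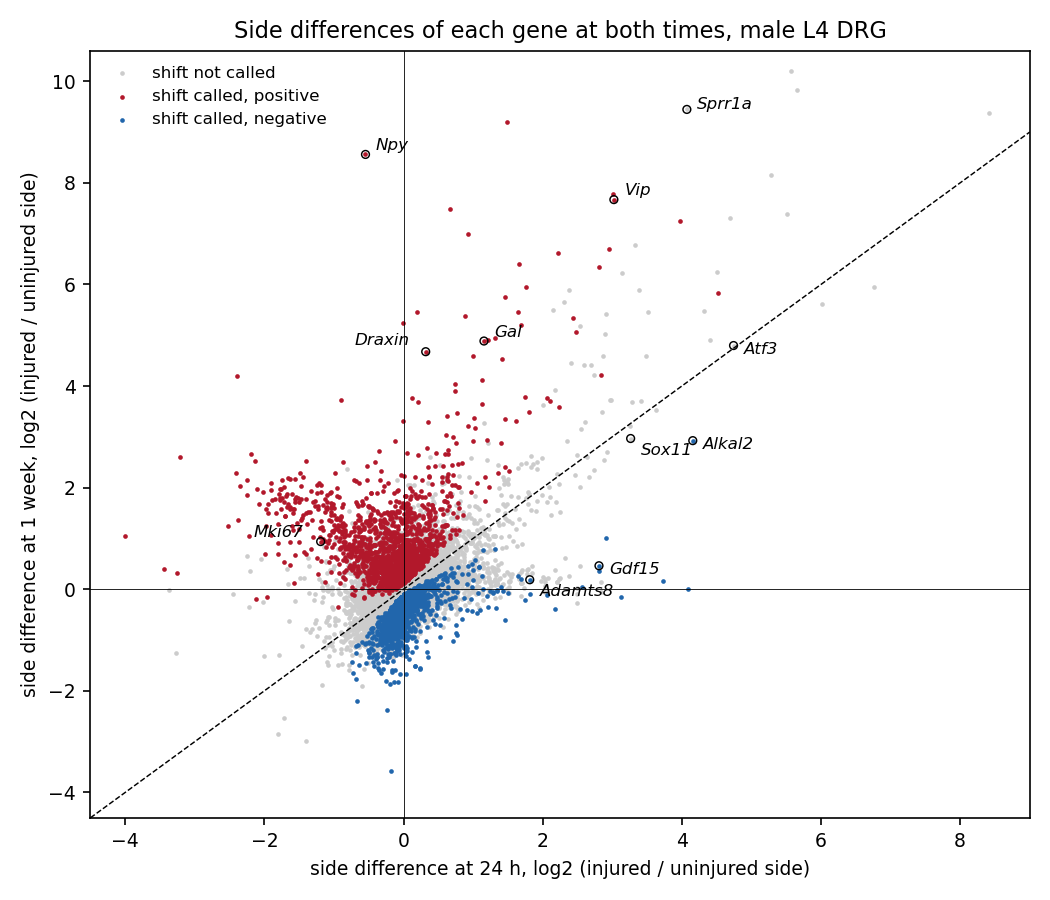
Side difference at 24 h (horizontal axis, log2 of injured over uninjured side) against that at 1 week (vertical axis, same unit), 1 point per gene tested, with called shifts coloured by direction. Npy and Gal lie far above the diagonal of equal side differences, Gdf15 lies far below it, and Atf3 lies on it.

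Atf3, a transcription factor that marks axotomised neurons, was raised on the injured side at both times with no called shift (chr13:102751278-102800520, build mRatBN7.2). Its lowest, median and highest levels were 6.58, 10.8 and 13.2 CPM on the uninjured and 159, 304 and 374 CPM on the injured side at 24 h, and 6.97, 9.03 and 10.8 CPM and 179, 261 and 295 CPM on these sides at 1 week. The sides did not overlap at either time, and the side differences were a 26.8-fold and a 27.8-fold excess of the injured side. The shift of 0.05 ± 0.27 missed the threshold (adjusted p = 0.924), with a 95% interval of -0.48 to 0.59. Sox11, a transcription factor needed for axon regrowth, had side differences of 3.26 ± 0.19 and 2.97 ± 0.17 and a shift of -0.30 ± 0.25 (adjusted p = 0.449; 95% interval -0.79 to 0.20). In all, 1318 genes were called in the same direction at both times with no called shift.

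The largest positive shift of all genes tested was that of a neuropeptide gene, Npy. Of 21 neuropeptide genes tested, 7 shifted up and 3 down, beside backgrounds of 10.3% and 12.1%. Npy encodes neuropeptide Y (chr4:78881294-78888495), a peptide of sympathetic and injured sensory neurons. Its lowest, median and highest levels were 0.413, 1.13 and 5.17 CPM on the uninjured and 0.714, 1.15 and 3.38 CPM on the injured side at 24 h, and 0.365, 0.779 and 1.27 CPM and 156, 302 and 335 CPM on these sides at 1 week. The sides overlapped at 24 h, whereas every injured library at 1 week was far above every uninjured one. The shift was 9.11 ± 0.74 (adjusted p = 3.15e-08), from a side difference of -0.55 to one of 8.56.

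Gal encodes galanin (chr1:200650439-200655302), a peptide induced in sensory neurons by axotomy. Its levels were 4.06, 5.32 and 6.70 CPM on the uninjured and 6.16, 11.6 and 21.2 CPM on the injured side at 24 h, and 3.80, 4.85 and 6.35 CPM and 117, 155 and 175 CPM on these sides at 1 week, given as lowest, median and highest. The sides overlapped slightly at 24 h and not at 1 week, although the 24 h difference of 1.16 ± 0.23 was called. The shift was 3.73 ± 0.31 (adjusted p = 3.15e-08). Vip, for vasoactive intestinal peptide, had 0.0484 to 0.367 CPM (median 0.177) on the uninjured and 0.336 to 4.65 CPM (median 1.09) on the injured side at 24 h, and 0.0624 to 0.226 CPM (median 0.141) and 16.0 to 44.2 CPM (median 33.0) at 1 week. Vip thus started from well under 1 CPM on the uninjured side, and its shift was 4.65 ± 1.18 (adjusted p = 0.00637).

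Pdyn, the dynorphin precursor, shifted by 3.64 ± 0.71, Cck, for cholecystokinin, by 2.01 ± 0.51, Pthlh, for a parathyroid hormone-related peptide, by 1.75 ± 0.33, and Nts, for neurotensin, by 1.64 ± 0.42. The receptor gene Cckbr, which binds cholecystokinin and gastrin, went from 0.212 to 0.833 CPM (median 0.349) and 0.385 to 1.48 CPM (median 0.717) at 24 h to 0.246 to 0.585 CPM (median 0.312) and 6.22 to 11.5 CPM (median 9.39) at 1 week, uninjured side first. Its injured and uninjured libraries overlapped at 24 h only, and the shift was 3.60 ± 0.45 (adjusted p = 2.58e-06). Downward shifts were called for Nmb, for neuromedin B, at -0.98 ± 0.19, for Sst, for somatostatin, at -0.76 ± 0.21, and for Calcb, which is described with the genes of 24 h. With the replicate number as a block 5 neuropeptide genes shifted down in place of 3.

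Most genes of the injury and axon growth response were higher on the injured side at both times, and only some of them had a called shift. Of 42 tested, 33 were higher on the injured side at 24 h and 38 at 1 week, 19 shifted up and 2 down (4 down without injured library 1 of 24 h), and the median shift was 0.32 against -0.01 over all genes. These genes were listed because they are known to respond to injury, so their direction is no independent evidence. The mean side difference of the list was 0.77 to 1.47 over the 6 pairs at 24 h and 1.59 to 1.98 over the 7 pairs at 1 week, so that the pairs of the 2 times did not overlap. Without injured library 3 of 1 week 21 of these genes shifted up.

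Gap43, the growth cone protein (chr11:58376371-58470047), had levels of 149, 177 and 194 CPM on the uninjured and 174, 235 and 259 CPM on the injured side at 24 h, and 171, 183 and 200.2 CPM and 437, 540.3 and 583 CPM on these sides at 1 week as lowest, median and highest. Injured and uninjured libraries overlapped at 24 h and were well apart at 1 week. The shift was 1.15 ± 0.11 (adjusted p = 1.12e-07). Stac2, an adaptor of voltage-gated calcium channels, moved from a side difference of 2.22 ± 0.30 to 6.63 ± 0.23. Its injured libraries held 2.09 to 5.91 CPM (median 4.12) at 24 h and 57.9 to 113 CPM (median 81.5) at 1 week, while no uninjured library exceeded 1.24 CPM. Cacna2d1, the calcium channel subunit that binds gabapentin, shifted by 1.32 ± 0.15 and Ecel1, a neuronal endopeptidase, by 2.04 ± 0.34.

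Some genes had few counts on the injured side until 1 week. Draxin, for a secreted axon guidance protein, had 0.272 to 0.643 CPM (median 0.411) on the uninjured and 0.119 to 1.12 CPM (median 0.478) on the injured side at 24 h, and 0.156 to 0.390 CPM (median 0.339) and 4.86 to 9.99 CPM (median 7.56) at 1 week. Both sides overlapped at 24 h only, and the shift was 4.36 ± 0.46 (adjusted p = 3.32e-07). Crisp3, for a secreted cysteine-rich protein, had 0 to 0.358 CPM (median 0.131) on the injured side at 24 h and 8.63 to 18.1 CPM (median 11.1) at 1 week, while the uninjured libraries held at most 0.138 CPM. Sprr1a, a cornified envelope protein induced in injured neurons, was at 0 in most uninjured libraries, with 0 to 0.447 CPM (median 0.168) on the injured side at 24 h and 4.59 to 8.76 CPM (median 6.52) at 1 week. The shift of Sprr1a was not called by edgeR (adjusted p = 0.159), but was called by DESeq2 (adjusted p = 8.87e-05) and by limma-voom (adjusted p = 5.41e-05), and fitted fold changes against libraries at 0 are not given. Gfra1, the receptor for glial cell line-derived neurotrophic factor, shifted by 0.94 ± 0.08 from a side difference of 0.44 ± 0.06 at 24 h.

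**Figure D2:**
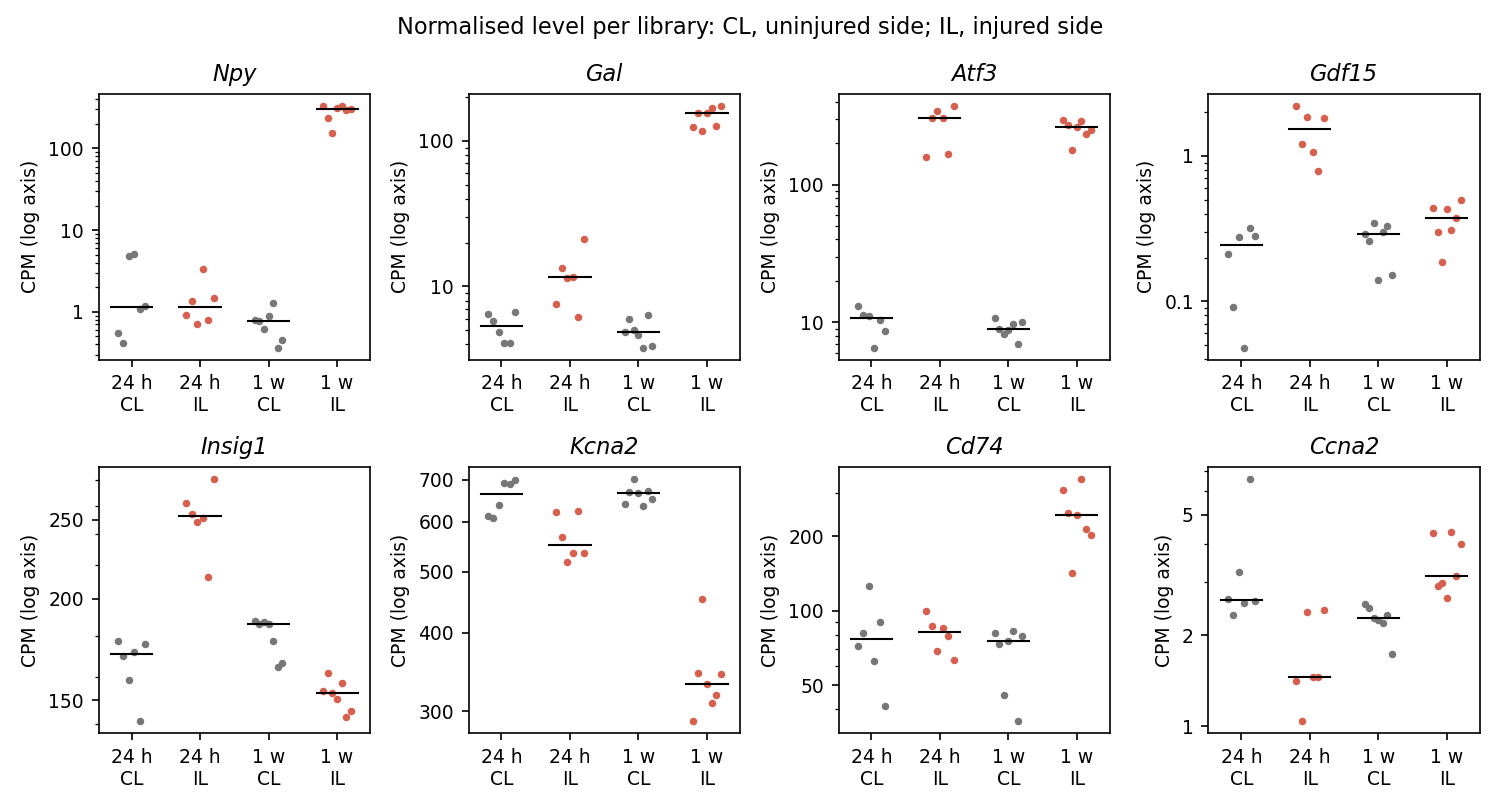
Levels in every library, in CPM on a log axis, for genes that carry the main patterns, by group (uninjured and injured side at 24 h and at 1 week), 1 point per library with a bar at the median. The sides of Npy, Gal, Kcna2, Cd74 and Ccna2 do not overlap at 1 week, those of Atf3 and Insig1 do not overlap at either time, and those of Gdf15 do not overlap at 24 h.

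A smaller set was called as higher at 24 h and not at 1 week, with a called shift. Gdf15 encodes a stress-induced cytokine of the TGF-beta family (chr16:18805312-18807893). Its lowest, median and highest levels were 0.0484, 0.245 and 0.317 CPM on the uninjured and 0.784, 1.52 and 2.22 CPM on the injured side at 24 h, and 0.141, 0.290 and 0.343 CPM and 0.187, 0.373 and 0.495 CPM on these sides at 1 week. The sides were apart at 24 h and overlapped at 1 week, with a shift of -2.35 ± 0.46 (adjusted p = 0.000531). Levels near 1 CPM or below make this a change of few counts.

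Adamts8, a secreted metalloprotease, rose on the injured side at 24 h from 7.92 to 14.7 CPM (median 11.8) to 27.7 to 58.2 CPM (median 41.1), while at 1 week the sides had 7.96 to 17.5 CPM (median 9.78) and 8.19 to 17.8 CPM (median 12.3). Levels of the sides overlapped at 1 week only, and the shift was -1.63 ± 0.29 (adjusted p = 0.00028). Egr3, an immediate early transcription factor, went from a side difference of 0.96 ± 0.18 to -0.19 ± 0.16, a shift of -1.16 ± 0.24 (adjusted p = 0.00101). Of 21 immediate early genes tested, 14 were higher on the injured side at 24 h and 14 at 1 week, but only Egr3 shifted down and only Nr4a2 shifted up (0.50 ± 0.15). Of all genes, 8.43% were higher at 24 h and 22.2% at 1 week, and 12.1% shifted down and 10.3% up.

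Calcb, for the beta form of calcitonin gene-related peptide, had 51.8 to 75.4 CPM (median 64.7) and 85.8 to 133 CPM (median 99.5) on the uninjured and injured side at 24 h, and 76.6 to 85.3 CPM (median 83.8) and 70.5 to 102 CPM (median 75.9) at 1 week. The sides were apart at 24 h and overlapped at 1 week, with a shift of -0.74 ± 0.13 (adjusted p = 0.00024). Alkal2, a ligand of the receptor kinase Alk, stayed high but less so, with side differences of 4.16 ± 0.23 and 2.92 ± 0.20 and a shift of -1.23 ± 0.31 (adjusted p = 0.00549 by edgeR and 0.0525 by limma-voom). Uck2, a pyrimidine salvage kinase, went from 1.08 ± 0.08 to 0.44 ± 0.08, a shift of -0.63 ± 0.11.

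A full cyclic AMP response element (TGACGTCA, the same on both strands, bound by CREB and ATF proteins; none of the motifs named here contains another) stood in the promoter window of 12 of the 137 genes called as higher only at 24 h that matched a RefSeq promoter. That is 8.76%, beside 2.84% of the 13751 genes tested with a promoter and 1.91% of all promoters of the same length. Other motifs (AP-1, CArG, TCACNCCAC and those named below) were searched too, in every class of shifted genes and every gene list. Other shares also stood apart from those of genes tested. TCACNCCAC stood in 3 of 27 promoters (11.11% against 1.1%) of genes higher at both times and less so at 1 week. TTTGAA or TTCGAA stood in 10 of 35 promoters (28.57% against 14.36%) of genes turning from lower to higher. The differences between such shares were not tested. The window ran from 250 bases before to 50 bases after the start in build GRCr8. To show such a window, the 250 bases before the start of Taf4b, a subunit of a general transcription factor (chr18:6227128-6227377, plus strand), and of Ppp1r15a, a phosphatase subunit of the stress response (chr1:105139597-105139846, minus strand), follow 5′ to 3′ with the element in capitals. Both genes were chosen after their values were seen.
Taf4b: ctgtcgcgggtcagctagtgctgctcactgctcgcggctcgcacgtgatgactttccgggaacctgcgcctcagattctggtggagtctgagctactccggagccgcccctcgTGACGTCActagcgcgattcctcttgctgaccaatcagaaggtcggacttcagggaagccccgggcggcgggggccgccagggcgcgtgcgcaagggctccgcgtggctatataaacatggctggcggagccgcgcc
Ppp1r15a: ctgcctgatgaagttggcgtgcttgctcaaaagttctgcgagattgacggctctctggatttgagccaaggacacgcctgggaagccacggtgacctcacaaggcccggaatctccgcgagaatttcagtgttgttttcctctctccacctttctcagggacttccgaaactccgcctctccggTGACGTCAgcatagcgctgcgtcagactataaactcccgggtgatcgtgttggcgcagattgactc
The element began 137 bases before the start of Taf4b and 66 bases before that of Ppp1r15a. Taf4b had side differences of 0.33 ± 0.05 and -0.10 ± 0.05 and a shift of -0.43 ± 0.07, and Ppp1r15a had 0.44 ± 0.07 and 0.12 ± 0.06 and a shift of -0.31 ± 0.09. A match describes the letters only.

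Many cholesterol synthesis genes turned from higher to lower. Of 25 genes of cholesterol synthesis and uptake, 16 were higher on the injured side at 24 h and none lower, whereas 6 were higher and 12 lower at 1 week. The shift was negative for 15 (background 12.1%) and positive for 1, with a median of -0.31. The mean side difference of the list was 0.23 to 0.35 over the pairs at 24 h and -0.13 to 0.06 at 1 week, and the pairs of the 2 times did not overlap.

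Insig1, which holds the sterol sensor in the endoplasmic reticulum (chr4:7315494-7323972), had levels of 141, 171 and 178 CPM on the uninjured and 212, 253 and 281 CPM on the injured side at 24 h, and 165, 186 and 188 CPM and 143, 153 and 162 CPM on these sides at 1 week as lowest, median and highest. The injured side was above the uninjured one without overlap at 24 h and below it without overlap at 1 week. The shift was -0.84 ± 0.08 (adjusted p = 3.47e-08).

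The same reversal was called for Stard4, a cholesterol carrier (0.32 and -0.28), Sqle, squalene epoxidase (0.30 and -0.18), Cyp51, lanosterol demethylase (0.23 and -0.24), and Hsd17b7, a sterol reductase (0.28 and -0.21). Idi1, an isomerase of the isoprenoid steps (0.24 and -0.30), was also called at both times, but without the 24 h pairs 5 and 6 its 24 h call was lost (adjusted p = 0.139).

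**Figure D3:**
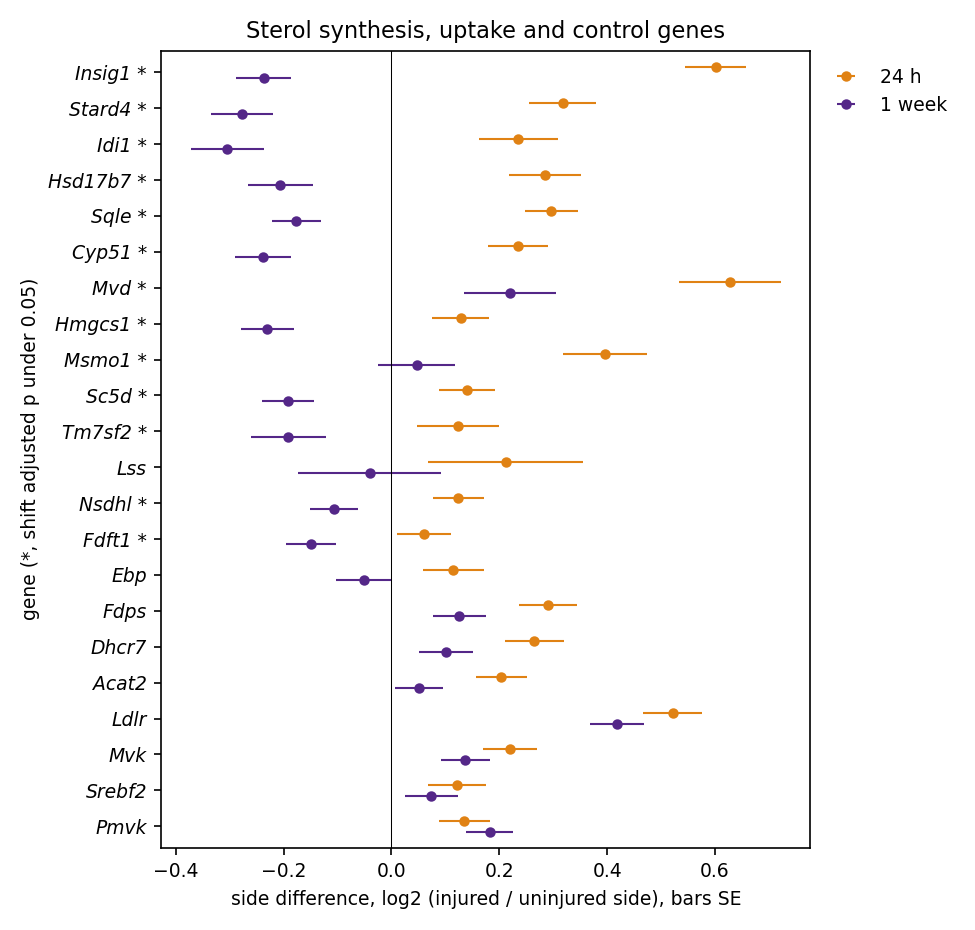
Side differences (log2 of injured over uninjured side, horizontal axis) of 22 of the 25 cholesterol genes at 24 h and at 1 week, 1 point per gene and time with SE as bars and a star for a called shift. Insig1, Stard4, Sqle, Cyp51, Hsd17b7 and Idi1 lie right of 0 at 24 h and left of it at 1 week.

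Genes that load amino acids onto tRNA had smaller downward shifts. Of 20 cytosolic tRNA synthetase genes, 8 were higher on the injured side at 24 h, and 6 were higher and 5 lower at 1 week. The shift was negative for 7 and positive for 1 (Qars1, 0.18 ± 0.04), with a median of -0.12. Of all genes, 8.43% were higher at 24 h, 22.2% higher and 22.8% lower at 1 week, and 12.1% shifted down and 10.3% up. Aars1, the alanyl-tRNA synthetase, had 352 to 399 CPM (median 386) and 387 to 452 CPM (median 427) at 24 h and 406 to 424 CPM (median 409) and 374 to 396 CPM (median 380.3) at 1 week, uninjured side first. Its sides overlapped at 24 h and were apart at 1 week, and the side difference changed sign from 0.14 ± 0.03 to -0.11 ± 0.03. Iars1, the isoleucyl-tRNA synthetase, shifted by -0.31 ± 0.05 (adjusted p = 5.89e-05) from a 24 h side difference of -0.01 ± 0.04.

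Atf4, the transcription factor of the integrated stress response, had 180.0 to 201 CPM (median 190.0) and 204 to 259 CPM (median 252) at 24 h and 193 to 238 CPM (median 208) and 198 to 239 CPM (median 218) at 1 week. The sides were apart at 24 h and overlapped at 1 week, with a shift of -0.28 ± 0.07 (adjusted p = 0.00877). Of 26 listed target genes of ATF4, 2 shifted up and 4 down, beside 10.3% and 12.1% of all genes. The upward count was 1 in 18 of the 26 fits that left out 1 library. The downward count was 2 without uninjured library 2 or injured library 7 of 1 week, or uninjured library 2 or 5 or injured library 6 of 24 h. Chac1, which degrades glutathione, was among those that shifted down (-0.61 ± 0.18).

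A C/EBP-ATF response element (TGATGNAAN, searched on both strands) stood in 7 of the 17 synthetase promoters matched, or 41.18%, beside 2.25% of genes tested and 3.8% of all promoters. Of the 7 with it 3 shifted down, and among the others 3 did. The 250 bases before the start of Aars1 (chr19:55908232-55908481, plus strand) and Iars1 (chr17:15193653-15193902, minus strand), from RefSeq on GRCr8, show it in capitals, as the reverse complement, 113 and 25 bases before the start.
Aars1: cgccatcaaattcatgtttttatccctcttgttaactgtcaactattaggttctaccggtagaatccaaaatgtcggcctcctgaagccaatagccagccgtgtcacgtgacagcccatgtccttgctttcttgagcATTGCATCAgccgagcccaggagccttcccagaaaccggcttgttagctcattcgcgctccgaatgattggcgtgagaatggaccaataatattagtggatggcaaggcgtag
Iars1: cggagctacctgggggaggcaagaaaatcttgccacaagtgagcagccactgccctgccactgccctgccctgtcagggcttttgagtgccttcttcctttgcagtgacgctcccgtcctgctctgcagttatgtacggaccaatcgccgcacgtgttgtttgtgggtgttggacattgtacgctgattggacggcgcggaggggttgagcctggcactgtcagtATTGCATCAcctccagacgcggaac

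Neurofilament genes were called as lower at 1 week and not at 24 h. Nefl, the light chain of the axonal intermediate filament (chr15:42301920-42305793), had levels of 7462, 8318 and 8779 CPM on the uninjured and 7385, 7934 and 9069 CPM on the injured side at 24 h, and 8143, 8363 and 8927 CPM and 3319, 4552 and 6044 CPM on these sides at 1 week as lowest, median and highest. The sides overlapped at 24 h, and at 1 week every injured library was below every uninjured one. The shift was -0.88 ± 0.11 (adjusted p = 5.22e-06), and Nefm and Nefh, the medium and heavy chains, shifted by -0.76 ± 0.10 and -0.65 ± 0.08. Among 30 neurofilament, tubulin and motor genes 11 shifted down and 11 up, beside 12.1% and 10.3% of all genes. The upward ones included Tubb2b (0.70 ± 0.09), Tubb6 (0.78 ± 0.21) and Tubb3 (0.33 ± 0.07), which are tubulins, Stmn2 (0.31 ± 0.06) and Stmn4 (0.95 ± 0.23), which bind tubulin, and Prph (0.30 ± 0.09), the peripheral intermediate filament.

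Of 40 potassium channel genes, 10 were lower at 24 h and 28 at 1 week, and 20 shifted down and 2 up (4 up with the replicate block and 1 to 3 without 1 library), with a median shift of -0.37. Of all genes, 5.02% were lower at 24 h and 22.8% at 1 week, and 12.1% shifted down and 10.3% up. Kcna2, a delayed rectifier of the axon, had 608 to 698 CPM (median 664) and 519 to 624 CPM (median 552) at 24 h and 635 to 701 CPM (median 667) and 289.7 to 452 CPM (median 332) at 1 week. Injured and uninjured libraries overlapped at 24 h and not at 1 week, although injured library 3 of 1 week was high for its group. The shift was -0.75 ± 0.10 (adjusted p = 5.57e-06). Its partner Kcna1 shifted by -0.60 ± 0.08, the beta subunit Kcnab1 by -0.80 ± 0.09, and Kcnh7, an ERG-type channel, went from a side difference of -0.31 ± 0.09 to -1.32 ± 0.08.

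Among 41 sodium and calcium channel genes 14 shifted down and 4 up, beside 12.1% and 10.3% of all genes. Scn1a went from a side difference of -0.23 ± 0.06 to -0.93 ± 0.06, and Scn8a, the sodium channel of the node of Ranvier, from -0.10 ± 0.06 to -0.76 ± 0.06. Fgf12, which binds sodium channels, shifted by -0.72 ± 0.09. Of 26 genes of synaptic vesicles and transmitter release 17 shifted down and 1 up (3 up with the replicate block, none without the 24 h pairs 5 and 6 and 0 to 2 without 1 library), with a median of -0.32.

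Snap25, a SNARE protein of the plasma membrane, had 1227 to 1521 CPM (median 1257) and 1189 to 1412 CPM (median 1267) at 24 h and 1032 to 1161 CPM (median 1103) and 527 to 729 CPM (median 649) at 1 week. Both sides overlapped at 24 h and were apart at 1 week, with a shift of -0.74 ± 0.08 (adjusted p = 7.75e-07). Vamp1, its vesicle partner, shifted by -0.80 ± 0.09, Syt2, a calcium sensor, by -0.50 ± 0.06, Rab3a, a vesicle GTPase, by -0.62 ± 0.08, and Slc17a7, the vesicular glutamate transporter, by -0.54 ± 0.07.

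Of 38 markers of sensory neuron subtypes 17 shifted down and 4 up. Of 27 opioid, adrenergic, cannabinoid and related receptor genes 5 shifted down and 4 up, beside 12.1% and 10.3% of all genes. Htr3a and Htr3b, the subunits of the ionotropic serotonin receptor, shifted by -1.01 ± 0.18 and -1.19 ± 0.16, with 24 h side differences of 0.05 ± 0.13 and 0.02 ± 0.11. Adra1a, an adrenergic receptor, was already lower at 24 h (-0.67 ± 0.18) and lower still at 1 week (-2.20 ± 0.18), and Oprd1, the delta opioid receptor, shifted by -1.07 ± 0.35. Pla2g7, a secreted phospholipase that hydrolyses platelet-activating factor, had 51.6 to 70.0 CPM (median 61.2) and 50.3 to 66.0 CPM (median 58.2) at 24 h and 63.4 to 73.7 CPM (median 65.0) and 13.3 to 29.9 CPM (median 18.2) at 1 week. Its sides overlapped at 24 h and were far apart at 1 week, with a shift of -1.75 ± 0.17 (adjusted p = 1.18e-07).

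Called shifts of genes for energy supply were mostly downward, and those of ribosomal protein genes were upward. Of 80 nuclear genes of oxidative phosphorylation, none were called at 24 h, 41 were lower and 1 higher at 1 week, and 37 shifted down and 1 up (median -0.20). Without the 24 h pairs 5 and 6, 28 shifted down. Ndufs1, of respiratory complex I, shifted by -0.38 ± 0.04, Sdha, of complex II, by -0.32 ± 0.05, and Atp5f1a, of the ATP synthase, by -0.30 ± 0.05. Of 92 ribosomal protein genes tested, 1 was higher at 24 h and 78 at 1 week, and 64 shifted up and none down (median 0.22). Rps4x, of the small subunit, had 185 to 212 CPM (median 203) and 181 to 199 CPM (median 188) at 24 h and 145 to 162 CPM (median 153) and 173 to 200.2 CPM (median 186) at 1 week, uninjured side first. Levels of the sides overlapped at 24 h and were apart at 1 week, with a shift of 0.35 ± 0.05 (adjusted p = 2.55e-05). Ribosomal protein genes have many processed copies, and reads shared with them could be split by the counting.

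Immune genes were raised at 1 week and mostly not called at 24 h. Of 35 macrophage markers 1 was higher and 1 lower at 24 h and 30 were higher at 1 week, and 22 shifted up and none down, with a mean side difference of the list of -0.56 to 0.66 over the 24 h pairs and 0.68 to 1.38 over the 1 week pairs (background 10.3% shifted up). With the replicate block 4 macrophage markers were higher at 24 h. Of 12 genes of MHC class II presentation none were called at 24 h, all 12 were higher at 1 week, and 9 shifted up. Cd74, the invariant chain (chr18:54256757-54266003), had levels of 41.2, 76.8 and 125 CPM on the uninjured and 63.6, 82.1 and 99.5 CPM on the injured side at 24 h, and 35.9, 75.5 and 82.7 CPM and 142, 245 and 339.8 CPM on these sides at 1 week as lowest, median and highest. The sides overlapped at 24 h and were apart at 1 week, with a shift of 1.81 ± 0.33 (adjusted p = 0.000334).

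RT1-Da, the rat class II alpha chain, shifted by 1.81 ± 0.34, Csf1r, the macrophage growth factor receptor, by 1.18 ± 0.26, and Lyz2, lysozyme, by 2.34 ± 0.41. Of 20 complement genes 18 were higher at 1 week and 12 shifted up, and 9 did so without the 24 h pairs 5 and 6. C1r, a protease of the classical pathway, shifted by 1.01 ± 0.24 and C2 by 1.65 ± 0.42. Of 31 interferon response and MHC class I genes 15 were higher at 1 week and 1 shifted up, but 9 did with the replicate number as a block and 9 without uninjured library 7 of 1 week. Their mean side difference ran from 0.05 to 1.14 over the 1 week pairs. Of all genes, 22.2% were higher at 1 week and 10.3% shifted up. In females at 1 week 2 of the 31 were higher and 1 lower, beside 21.7% and 23.3% of all genes there.

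Among 28 cytokine genes 8 were higher at 24 h and 18 at 1 week, and 6 shifted up (10 with the replicate block or without injured library 3 of 1 week, and 4 without uninjured library 5 at 24 h). The same shares of all genes were 8.43%, 22.2% and 10.3%. Csf1, the macrophage growth factor, was raised early and further late, with 16.7 to 28.5 CPM (median 21.9) and 34.1 to 60.4 CPM (median 52.4) at 24 h and 14.9 to 21.1 CPM (median 18.4) and 60.4 to 101 CPM (median 80.8) at 1 week. Its sides were apart at both times, and the shift was 1.03 ± 0.21 (adjusted p = 0.000844). Tslp, a cytokine of barrier tissues, was also raised at both times, with side differences of 2.06 ± 0.24 and 3.76 ± 0.21 and a shift of 1.70 ± 0.32. Cxcl14, a chemokine, shifted by 2.73 ± 0.53 with sides that overlapped at 24 h.

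**Figure D4:**
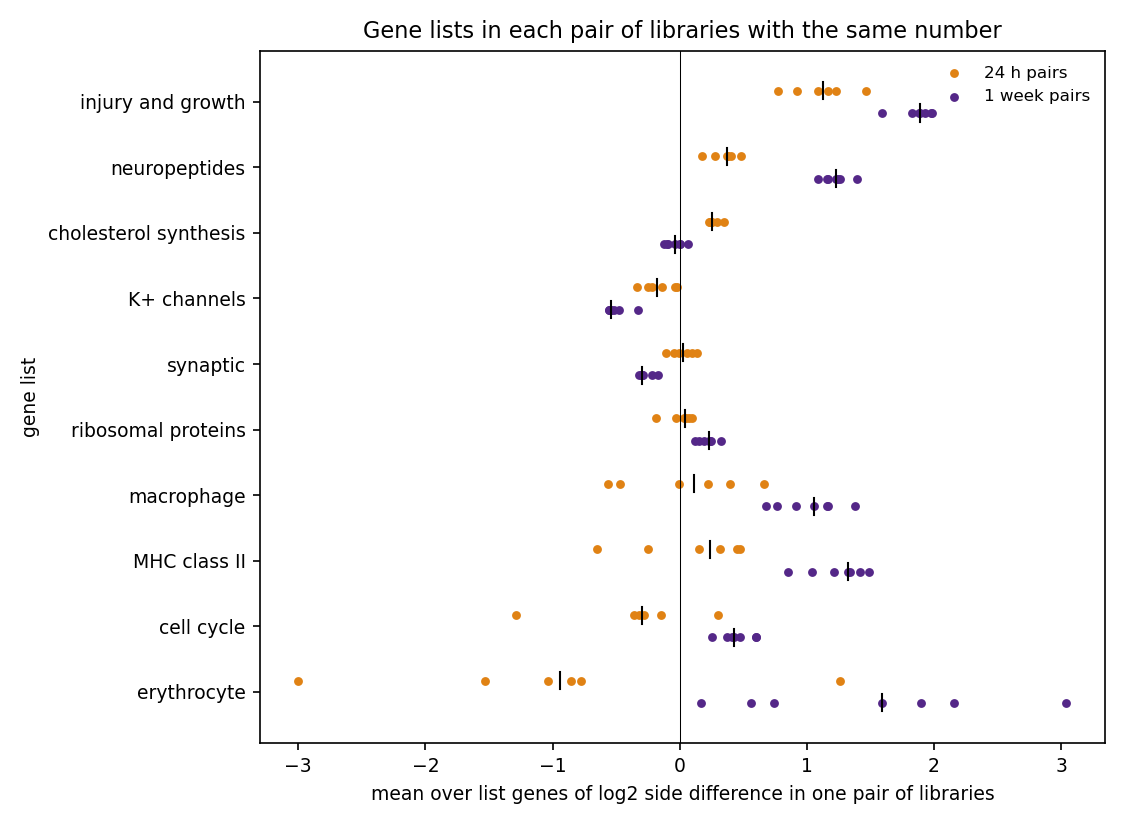
Mean side difference (log2 of injured over uninjured side, horizontal axis) of gene lists (vertical axis), 1 point per same-numbered pair of libraries at 24 h and at 1 week, with a bar at the median pair. The cholesterol list lies at 0.23 to 0.35 at 24 h and -0.13 to 0.06 at 1 week, and the erythrocyte list spreads from -3.00 to 1.26 at 24 h.

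Transcripts of blood and marrow cells also shifted up in the males. All 16 erythrocyte markers tested shifted up (median 2.73), none were called at 24 h and 13 were higher at 1 week. Their summed level was 528 to 3643 CPM on the uninjured and 315 to 1432 CPM on the injured side at 24 h, and 147 to 930 CPM and 672 to 2286 CPM at 1 week. The mean side difference of the list ran from -3.00 (pair 5) to 1.26 (pair 6) at 24 h and from 0.17 to 3.04 at 1 week, so the pairs of the 2 times overlapped through pair 6. Without pairs 5 and 6, whose numbers are in doubt, the 24 h pairs ran from -1.53 to -0.77 and did not overlap those of 1 week. Of 20 neutrophil and mast cell markers 17 shifted up (median 3.07), but 13 with the replicate block, 13 without the 24 h pairs 5 and 6, 10 without uninjured library 5 and 9 by limma-voom.

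Mpo, the neutrophil peroxidase, shows this spread. Its levels were 0.849, 6.14 and 40.8 CPM on the uninjured and 0.704, 1.43 and 6.19 CPM on the injured side at 24 h, and 0.334, 1.13 and 5.62 CPM and 2.06, 7.71 and 10.4 CPM on these sides at 1 week as lowest, median and highest, with the sides overlapping at both times. Of 14 lymphocyte markers tested 7 shifted up, but 4 without the 24 h pairs 5 and 6, 2 without uninjured library 5, 4 without injured library 5 of 24 h or 1 of 1 week, and 3 by limma-voom. The share of all genes that shifted up was 10.3%. In females at 1 week none of the 16 erythrocyte and none of the 20 neutrophil and mast cell markers were called by edgeR. In the same females 28 of 35 macrophage markers and 12 of 12 class II genes were higher and none lower, beside 21.7% and 23.3% of all genes. Without the 24 h pairs 5 and 6, 16 erythrocyte markers, 21 macrophage markers and 8 class II genes shifted up, so the blood markers shifted up in that setting too. The part of blood and marrow transcripts in the immune shifts was not tested.

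Cell cycle genes were lower or not called at 24 h and mostly higher at 1 week. Of 40 tested, 7 were lower on the injured side at 24 h, 26 were higher and 1 lower at 1 week, and 24 shifted up and none down (median 0.93). Of all genes, 5.02% were lower at 24 h, 22.2% higher and 22.8% lower at 1 week, and 10.3% shifted up. The shift count of the list was 25 without the 24 h pairs 5 and 6 and 23 without uninjured library 5. The lower calls at 24 h were less stable, with 2 left without these pairs and 3 without uninjured library 5. The mean side difference of the list was -1.28 (pair 5) to 0.30 (pair 6) at 24 h and 0.26 to 0.60 at 1 week. The same pairs were the lowest and highest for the erythrocyte list (-3.00 and 1.26) and the neutrophil and mast cell list (-2.73 and 1.25), and the part of these transcripts in the cell cycle shifts was not tested. Without pairs 5 and 6 the cell cycle list was at -0.36 to -0.14 at 24 h.

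Ccna2, for cyclin A2, had levels of 2.34, 2.61 and 6.56 CPM on the uninjured and 1.04, 1.46 and 2.42 CPM on the injured side at 24 h, and 1.73, 2.28 and 2.53 CPM and 2.66, 3.14 and 4.39 CPM on these sides at 1 week as lowest, median and highest. The high value of the uninjured side at 24 h was library 5, and the sides overlapped slightly at 24 h but not at 1 week. The side difference changed from -0.98 ± 0.23 to 0.63 ± 0.20, a shift of 1.61 ± 0.31 (adjusted p = 0.000394), and its 24 h call was kept without pairs 5 and 6 (adjusted p = 0.0193). Mki67, the proliferation marker, shifted by 2.13 ± 0.54, but its 24 h call (adjusted p = 0.048) was lost with the replicate block (0.111) and without pairs 5 and 6 (0.103). Mcm5, of the replication helicase, shifted up (adjusted p = 0.000187) from a 24 h side difference of -0.12 ± 0.21 to 1.48 ± 0.19.

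The cell cycle genes homology region (TTTGAA or TTCGAA, both strands) stood in 16 of 31 matched promoters of the list, or 51.61%. The share was 14.36% of genes tested and 19.52% of all promoters. In the other lists it ran from 0% (as in MHC class II genes) to 41.67% (5 of 12 complement promoters), with 34.78% in macrophage markers. The motif is thus not particular to the cell cycle list. Of the 16 cell cycle genes with it 12 shifted up, and among the others of this list 7 did. The promoters of Mki67 (chr1:199952594-199952843) and Ccnb2, for cyclin B2 (chr8:79981659-79981908), both on the minus strand of GRCr8 and 250 bases long up to the start, show it in capitals in 2 places each. Ccnb2 was chosen after its values were seen, and its shift was 1.57 ± 0.35 (adjusted p = 0.00192).
Mki67: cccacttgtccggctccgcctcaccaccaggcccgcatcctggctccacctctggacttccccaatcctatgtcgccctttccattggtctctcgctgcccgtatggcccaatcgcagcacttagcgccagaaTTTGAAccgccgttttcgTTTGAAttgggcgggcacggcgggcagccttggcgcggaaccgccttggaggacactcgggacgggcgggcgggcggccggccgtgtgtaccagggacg
Ccnb2: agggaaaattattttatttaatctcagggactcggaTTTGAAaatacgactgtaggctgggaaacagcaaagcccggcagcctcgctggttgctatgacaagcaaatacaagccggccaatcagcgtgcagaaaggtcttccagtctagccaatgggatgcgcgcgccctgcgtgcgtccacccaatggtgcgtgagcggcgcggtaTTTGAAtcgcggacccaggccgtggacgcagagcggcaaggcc
The matches began 117 and 99 bases before the start in Mki67 and 214 and 43 bases before it in Ccnb2.

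Matrix and glial genes moved less evenly. Of 34 collagen, fibroblast and matrix genes 13 shifted up and none down (median 0.63), but 9 without the 24 h pairs 5 and 6 and 20 with the replicate block. Col5a1 and Fbn1, of collagen fibres and microfibrils, shifted by 0.53 ± 0.14 and 1.09 ± 0.28. In females at 1 week 1 of the 34 was higher and 7 were lower, beside 21.7% higher and 23.3% lower of all genes there. Of 22 myelin genes 12 were lower at 1 week and 2 shifted down (6 with the replicate block). Of 19 repair Schwann cell genes 7 were higher at 24 h and 15 at 1 week, and 5 shifted up (3 without the 24 h pairs 5 and 6 or without uninjured library 5), among them Runx2, a transcription factor (1.25 ± 0.23). Of all genes, 8.43% were higher at 24 h, 22.2% higher and 22.8% lower at 1 week, and 10.3% shifted up and 12.1% down.

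Of 20 satellite glia markers 2 shifted up (1 or 2 without 1 library) and 4 down (7 down with the replicate block), with Bcan, for brevican, at -0.80 ± 0.18 and Cdh19, a cadherin, at 0.49 ± 0.09. Of 24 endothelial, pericyte and smooth muscle markers 1 shifted up (Ocln, for occludin, 0.88 ± 0.21) and 1 down, while 6 shifted up with the replicate block and 3 or 4 without uninjured library 1 or injured library 6 or 7 of 1 week, or uninjured library 6 or injured library 4 of 24 h. Of 18 core clock genes 1 shifted up and 1 down, but 2 up with the replicate block, none up by limma-voom and none up in 18 of the 26 fits that left out 1 library. Of 18 genes known to rise with glucocorticoids 1 shifted up and 1 down (4 up with the block, and 1 or 2 each way without 1 library). These counts stand beside 10.3% up and 12.1% down of all genes. Of 28 growth factor and receptor genes 3 shifted up and 3 down. The upward count was 1 without uninjured library 2, 3 or 5 of 24 h or injured library 1 or 4 of 1 week, and 5 without uninjured library 4 of 24 h. Nrg1, an axonal signal to Schwann cells, shifted by -0.61 ± 0.07. Of 9 muscle and adipocyte markers tested 2 shifted up (4 without uninjured library 7 of 1 week), Cidec, of lipid droplets (4.63 ± 0.87), and Cfd, adipsin (2.00 ± 0.48).

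The other arms of the study, which no call of these classes used, gave the side differences of the same genes 1 week after injury in females and 5 weeks after it in males. Of the 1398 tested genes called as higher only at 1 week, 986 (70.5%) were higher in females at 1 week and 5 lower, beside 21.7% higher and 23.3% lower of all genes there. Of the 1731 called as lower only at 1 week, 1501 (86.7%) were lower in these females and 2 higher. All 210 genes higher at both times and more so at 1 week were higher in the females, and 206 in the 5 week males (background 16.7%). All 151 genes lower at both times and more so at 1 week were lower in the females, and 149 in the 5 week males (background 16.9%).

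Of 183 genes called as higher only at 24 h, 20 (10.9%) were higher and 16 (8.74%) lower in females at 1 week. Both shares were below those of all genes there, 21.7% higher and 23.3% lower. Of the 83 genes that turned from higher to lower, 50 (60.2%) were lower and none higher in females at 1 week by edgeR. Of the 42 that turned from lower to higher, 20 (47.6%) were higher and none lower there. Insig1 was at -0.27, Npy at 7.59 and Nefl at -0.85 in these females. These values are side differences and not shifts.

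**Figure D5:**
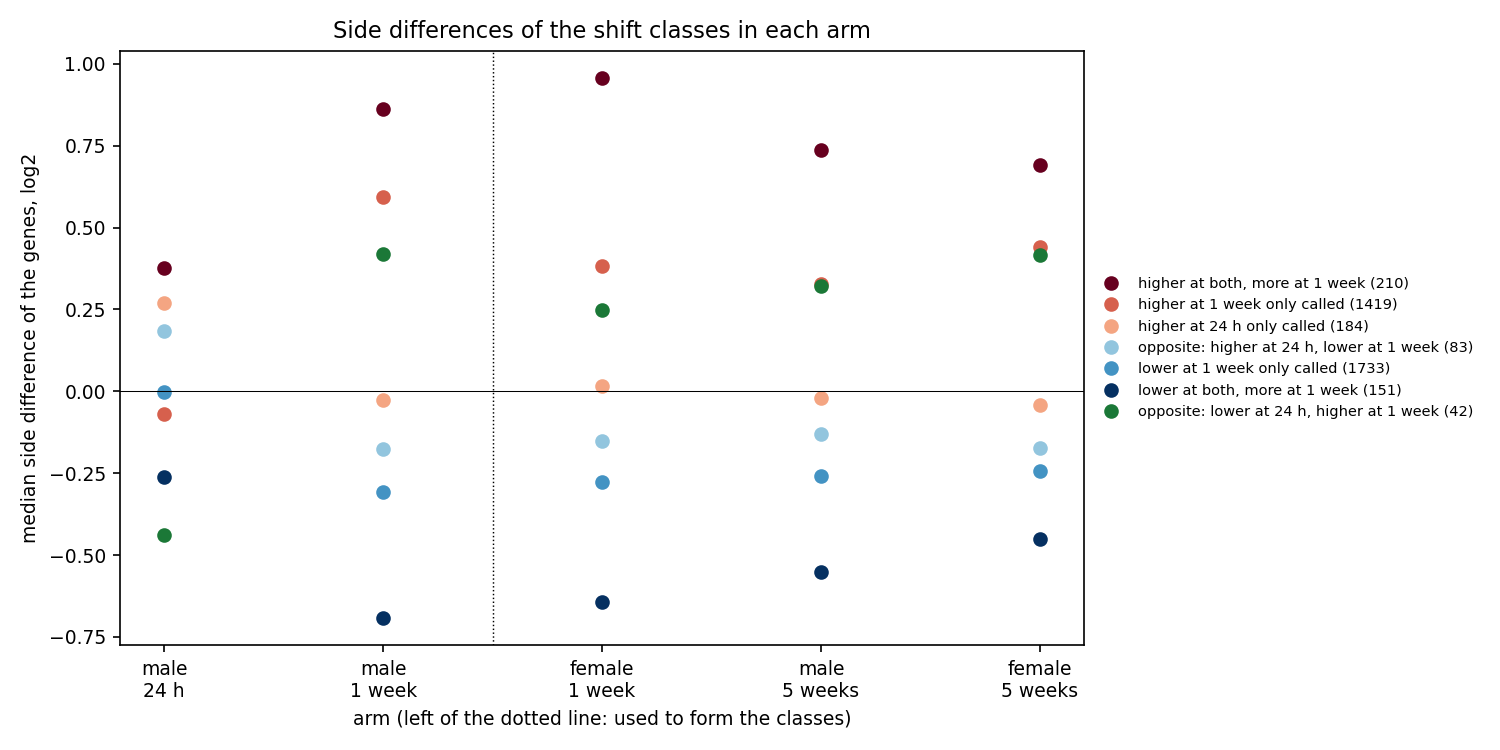
Median side difference (log2 of injured over uninjured side, vertical axis) of the classes of shifted genes named in the legend. Males at 24 h and 1 week defined the classes, and females at 1 week and both sexes at 5 weeks did not. The remaining classes are not shown. The medians of genes higher or lower at both times keep their sign in every arm, and the median of those called as higher only at 24 h lies near 0 in the later arms.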

How the data were processed

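Per the labels' protocols, RNA of whole ganglia was poly-A selected and sequenced with single-end reads on either of 2 instruments, without saying which. The authors deposited estimated counts per gene (fractional where reads are shared; 75.5% of nonzero values were whole) in 2 tables of 40982 genes, and rounding them to whole numbers changed totals by at most 0.0014%. The unit had been planned as counts or rounded estimated counts. The submitters' processing notes list the aligner STAR 2.7.2b, the counter featureCounts 1.6.4, cutadapt 2.5, bcl2fastq 2.20.0.422 and build mRatBN7.2. Gene positions are those of the deposited tables.

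The tables were joined by gene. Genes were kept by filterByExpr with a minimum count of 10, scaled by TMM and tested with edgeR 4.0.16 (robust quasi-likelihood) in R 4.3.3 on the 4 groups, with Benjamini-Hochberg adjustment. The other 36 libraries were fitted separately. DESeq2 1.42.0, limma 3.58.1 (voom) and further settings, and leaving out each library, were alternatives; the block without the 24 h pairs 5 and 6 was added after seeing the data. Python 3.11.15, pandas 2.3.3 and matplotlib 3.10.9 made tables and plots. Tested on simulated counts of 18518 genes for the shift, the fit found 46% of 1.5-fold, 78% of 2-fold, 84% of 3-fold and 96% of 4-fold changes, with 6 false calls. The simulated counts had no side differences outside the changed genes and no pairing of libraries. They therefore do not give the rate of false calls in the real libraries.

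At 24 h the labels give the same-numbered libraries of both sides a shared code. After group means were removed, same-numbered libraries correlated at 0.256 to 0.538 (1 week, median 0.426) and -0.024 to 0.405 (24 h, median 0.211), so the numbers were taken to pair the samples, by the shared code at 24 h and by these correlations at 1 week. The 24 h pairs 5 and 6 (-0.024 and -0.0199) are in doubt, since the crossed libraries correlated at 0.268 (injured 6, uninjured 5) and 0.129 (injured 5, uninjured 6), and were left as labelled. The main test compared the 4 groups and did not use the pairing. Pairing entered only the settings with the replicate block and the values per pair. The labels do not tie the 1 week libraries to separate animals, so p-values measure the spread between these samples. No libraries were duplicates, and 0 columns of unknown sample were used.

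The comparison and the 32 gene lists were chosen with earlier results of these data known. Genes were named by rule: 6 injury genes as a check, the 12 largest shifts per direction, the 4 largest per class, the 4 smallest p-values of each list with members called in opposite directions, and the 6 of highest level per direction. All but the injury check were drawn from genes with a called shift. A mean log2 CPM of at least 1 was required except for the injury check and the list genes. Some genes are not reported here, but stay in the fits and counts. Cck, Ccnb2, Ecel1, Nmb, Nts, Oprd1, Pdyn, Ppp1r15a, Sst, Stmn4, Taf4b and Tubb6 were chosen after their values were seen.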

Additional observations from a re-analysis of the deposited data

Results flagged for a closer look

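In 188 groups of 6 or 7 libraries or pairs examined, 15 had a value far from the others, where chance alone gives about 1 in 20. Uninjured library 1 at 24 h had the highest total of its group, 24.0 M counts (M, 1e6), and injured library 7 at 1 week the lowest ribosomal RNA share, 3.747%. At 1 week injured library 3 was high for Kcna2 (451.7 CPM) and Pla2g7 (29.88 CPM), and pair 3 had the smallest mean side differences of the injury and growth list (1.5932), the repair Schwann cell list (0.7468) and the potassium channel list (-0.3262, the nearest to 0). Uninjured library 7 at 1 week was low for Vamp1 (960.4 CPM) and Ccna2 (1.733 CPM), uninjured library 6 was high for Ndufs1 (209.5 CPM), and pair 7 had a mean of -1.3961 for muscle and adipocyte markers. At 24 h uninjured library 5 was high for Ccna2 (6.563 CPM), injured library 6 low for Htr3b (56.56 CPM), injured library 1 high for Col5a2 (228.4 CPM), and pair 1 stood apart for satellite glia markers (0.0011).

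The side difference itself differed between the times for 4198 genes by the test of the shift. Among the named genes given here that were called in opposite directions at the 2 times, the shifts were negative for Togaram2 (-1.41), Cysltr2 (-1.15), Insig1 (-0.84), Stard4 (-0.60), Idi1 (-0.54), Hsd17b7 (-0.49), Sqle (-0.47), Cyp51 (-0.47), Ptprz1 (-0.34), Aars1 (-0.25) and Dync1h1 (-0.20). They were positive for Mki67 (2.13), Ccna2 (1.61), Nusap1 (1.43), Ndc80 (1.27) and Rrm2 (1.11). Without the 24 h pairs 5 and 6 the 24 h calls of Cysltr2, Mki67, Nusap1, Ndc80, Rrm2 and Idi1 were lost (adjusted p = 0.132, 0.103, 0.113, 0.0722, 0.108 and 0.139 by edgeR). In separate fits per time those of Dync1h1, Mki67, Nusap1, Ndc80, Rrm2 and Idi1 were lost (adjusted p = 0.0777, 0.2085, 0.0725, 0.0949, 0.1599 and 0.09995 by edgeR). Calm-ps1 (-2.56) is a pseudogene with near-identical copies, and its counts are uncertain: its 24 h call was lost without pairs 5 and 6 (adjusted p = 0.398 by edgeR), and its median was 0.0212 CPM on the uninjured side in the 24 h table and 5.69 CPM in the 1 week table.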

How the results depend on the processing

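The count of 4198 called shifts was 3391 without the 24 h pairs 5 and 6 and 5250 with the replicate block, the extremes of 13 alternatives, which shared 75.0% to 98.7% of the calls. Leaving out 1 library gave 3657 to 4557. Of 164 named genes none with a called shift changed sign, 15 had another call in an alternative that kept all pairs and 16 without 1 library. The shift of Atf3, which was not called, ran from -0.06 to 0.16 without 1 library.

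Genes called at 24 h (2529) were 1604 in separate fits per time (1055 higher, 549 lower) and 1530 without pairs 5 and 6 (1056 and 474); 1417 were lower with the replicate block; leaving out 1 library gave 2121 to 3108 (1379 to 1899 higher, 715 to 1209 lower). Genes called as higher only at 24 h (184) were 102 without pairs 5 and 6. Those called as lower only at 24 h (90) were 54 in separate fits, 145 with all 62 libraries, 173 with the block and 39 without the pairs, and 45 to 152 without 1 library. Genes turning from higher to lower (83) were 50 with no filter, 45 in separate fits and 40 without the pairs. Those turning from lower to higher (42) were 27, 16 and 15 in these settings, 70 by DESeq2, 121 with all 62 libraries, 130 with the block, 92 with the block and without the pairs, and 20 to 94 without 1 library. Genes higher at both and more so at 1 week (210) were 135 without the pairs, and those less so (36) were 62 with the block, 60 with the block and without the pairs, and 29 to 74 without 1 library. Settings without the pairs use fewer samples; for the others the cause was not tested. Among the list counts of shifts and of 24 h calls given above, the block otherwise moved none by over 1.5 times. Exceptions were 1 cytokine gene down and 1 myelin gene up in place of 0. With the block the 24 h call of Rrm2 was lost (adjusted p = 0.0511 by edgeR). Of the simulated shifts those of 1.5-fold were found least often, and genes near 1 CPM are measured least well.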
